A study of Mus musculus with 12 samples.

Results

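Adipocyte-marker cells were selected on the UMIs of 8 adipocyte genes, and 1488 of the 38072 barcodes that passed the limits met the rule. A barcode passed with more than 200 genes, more than 1000 unique molecular identifiers (UMIs) and under 10% mitochondrial UMIs. A member had at least 1 UMI of at least 4 of Adipoq, Cidec, Plin1, Car3, Retn, Mrap, Adig and Pck1, and no UMI of Ptprc, the leukocyte marker CD45, or of Pecam1, an endothelial marker. The values of these 8 genes therefore chose the members, and they are given as a description only.

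Single-cell RNA sequencing with a 5′ chemistry was applied to the mouse aorta, with 6 aortas pooled into 1 library for each of 4 groups. All groups were male C57BL/6J ApoE−/− mice by the study's account, 18 mice in each, aged 8 weeks at the start and kept for 24 weeks. Mice labelled Healthy ate a normal diet and were given saline by gavage. The remaining groups ate a diet with 1% cholesterol and 10% fat. AS mice had saline, MTZ-treated mice had methazolamide (MTZ), an inhibitor of carbonic anhydrases, at 25 mg/kg over the final 12 weeks, and MTZ-preventive mice had this dose throughout the 24 weeks. Methoxazolamide is the spelling of the drug in the sample labels. Each group also had a library of B cell and a library of T cell receptor sequences. The spread between mice could not be estimated from 1 pooled library per group, so no difference between groups was tested. The gene expression libraries held 42235505 UMIs (labelled Healthy), 7617682 (AS), 26196680 (MTZ-treated) and 50769911 (MTZ-preventive). The limits in parentheses are 95% limits of counting error only.

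Fat cells store triglyceride in a lipid droplet that is coated with perilipins and CIDE proteins, fill it by taking up fatty acids or making them from sugar, and empty it through lipases. They secrete hormones such as adiponectin, resistin and leptin. The aorta is surrounded by perivascular fat, which in mice ranges from brown-like fat along the chest to white fat along the abdomen, and mature fat cells are large, buoyant and fragile, so that few of them usually survive the preparation of single cells.

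The rule genes cover several of these roles. Adipoq (ENSMUSG00000022878, chromosome 16, 23146536 to 23157968 in GRCm38.p6, the assembly also called mm10) encodes adiponectin, and Retn (ENSMUSG00000012705, chromosome 8, 3655770 to 3659818) encodes resistin. Plin1 (ENSMUSG00000030546, chromosome 7, 79721164 to 79732904) and Cidec (ENSMUSG00000030278, chromosome 6, 113424634 to 113435760) encode proteins of the droplet surface. Car3 (ENSMUSG00000027559, chromosome 3, 14863538 to 14872381) encodes the cytosolic carbonic anhydrase of fat and muscle. Mrap (ENSMUSG00000039956, chromosome 16, 90738207 to 90749785) encodes an accessory protein of the melanocortin receptors, and Adig (ENSMUSG00000044405, chromosome 2, 158502612 to 158508198) encodes adipogenin. Pck1 (ENSMUSG00000027513, chromosome 2, 173153073 to 173159274) encodes the cytosolic carboxykinase that supplies glycerol for triglyceride.

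Promoter sequence of the rule genes was searched for elements of the regulators of fat cell differentiation, because these genes are those that define the members. RefSeq windows from 250 bases before to 50 bases after a transcription start were at hand for 6 of the 8 genes, in 7 windows. The C/EBP motif TTGCNNAA on either strand lay in 2 of the 7 windows, against 10.8% of 32817 mouse windows of the same length. The matches were in Cidec and Plin1. They are shown 5′ to 3′ on the minus strand of GRCm38.p6 with the motif in capitals, at chr6:113434944-113434973, chr7:79732945-79732974 and chr7:79732816-79732845.
Cidec site 1: ggagggctctaTTGCTCAAgggcccatggg
Plin1 site 1: ccacctctttaTTGCCTAAacatcccccat
Plin1 site 2: tctgagaggcaTTGCCCAAgattccctgga
The motif began 198 bases before the start of a transcript in Cidec, and 187 and 58 bases before it in Plin1. The direct repeat for PPARγ with RXR, a pair of AGGTCA hexamers 1 base apart, was in none of the 7 windows and in 0.0396% of all windows. A single AGGTCA hexamer lay in 1 of the 7 windows, that of Adig, and in 16.3% of all windows. A match of letters is a description of the window and not evidence of binding.

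The library labelled Healthy went against its label in these cells as well. Apoe had 3904 CPM (3544 to 4292) in its members, and every one of them had an Apoe UMI after thinning to 1000 UMIs per cell. Apoe was at 6.21 CPM in AS members, 9.22 CPM in MTZ-treated members and 11.1 CPM in MTZ-preventive members. CPM is the count of a gene summed over the members of a library per 1000000 UMIs of the same cells. Values of the library labelled Healthy are given below as those of that library, not of an ApoE−/− control.

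Members were frequent in AS and MTZ-preventive and rare in the others. They were 48 of 12340 cells in the library labelled Healthy (0.389%, 0.287 to 0.515, Clopper-Pearson limits), 306 of the 2201 in AS (13.9%, 12.5 to 15.4), 45 of the 7215 in MTZ-treated (0.624%, 0.455 to 0.834) and 1089 of 16316 in MTZ-preventive (6.67%, 6.30 to 7.07). Relative to the library labelled Healthy the AS share was 35.7 (26.5 to 48.3) times as high, and it was 22.3 (16.4 to 30.4) times that of MTZ-treated and 2.08 (1.85 to 2.35) times that of MTZ-preventive. With looser limits of more than 500 UMIs and under 20% mitochondrial UMIs, the last ratio was 1.33 (1.21 to 1.47) and the first was 23.7 (18.5 to 30.4). The amount of fat left on each aorta at dissection is not recorded in the sources used here, and its part in these shares was not tested. The 4 libraries also differed in the number of barcodes that passed, which sets the denominator. Without B cell- and T cell-marker cells in the denominator, the share was 0.707% in the library labelled Healthy and 14.1% in AS, and 0.641% in MTZ-treated and 7.64% in MTZ-preventive.

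Depth behind the values differed as well. The members held 109875 UMIs in the library labelled Healthy and 644376 in AS, and 108430 in MTZ-treated and 3981165 in MTZ-preventive, so that a count of 0 allows up to 27.3, 4.66, 27.7 and 0.754 CPM. The median member had 1488 UMIs in the library labelled Healthy and 1498 in AS, and 1704 in MTZ-treated and 2238 in MTZ-preventive. The deepest single member held 14.0%, 4.59%, 17.8% and 0.535% of the member UMIs in the same order. The limits of counting error do not cover this. Mitochondrial UMIs were more frequent in members than in other cells of each library, with medians of 5.65% against 2.39%, 6.26% against 2.92%, 4.63% against 1.87% and 5.62% against 3.11% in the same order. Pairs of libraries shared between 209 and 805 barcode sequences, about 3% of the smaller library, and no barcode was a member in both libraries of a pair.

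The number of rule genes per cell was distributed differently in the libraries. In AS, 49.4% of cells had none of the 8 genes, 9.18% had 2 and 6.54% had 3, and in MTZ-preventive 61.7%, 6.88% and 4.54% did. In the library labelled Healthy 97.6% of cells had none and 0.113% had 3, and in MTZ-treated 94.9% had none and 0.236% had 3. The members of AS and MTZ-preventive thus lay at the upper end of a continuous slope of cells with some adipocyte RNA (the shares fell at each further gene). In the other libraries 0.154% and 0.333% of cells had 5 genes, somewhat more than had 3, but this was not so after thinning to 1000 UMIs, where 0.178% and 0.402% had 3 genes and 0.113% and 0.166% had 5. Just inside and outside the threshold, cells with 4 and with 3 genes had 28220 and 22232 CPM of Cfd in AS, 20234 and 14771 CPM in MTZ-preventive and 15592 and 17149 CPM in the library labelled Healthy. Cfd encodes adipsin, a complement protease secreted by fat cells, and is not in the rule.

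**Figure D1:**
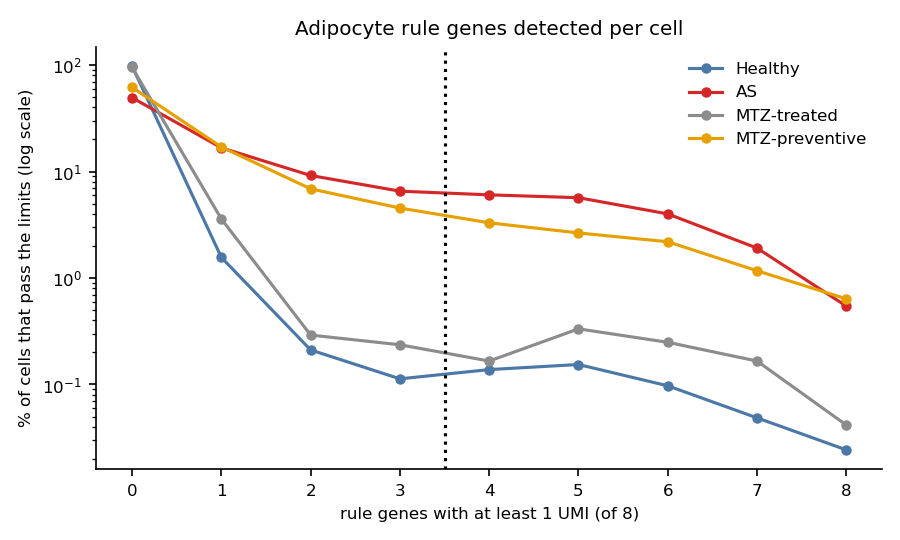
Percent of the cells that pass the limits (log scale) against the number of the 8 rule genes with at least 1 UMI, 1 line for each library, with the threshold of 4 genes as a dotted line. The AS and MTZ-preventive lines fall without a gap from 49.4% and 61.7% at 0 genes, and the other lines drop to 0.113% at 3 genes (library labelled Healthy) and 0.166% at 4 genes (MTZ-treated) with a small rise at 5 genes that is absent after thinning.

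Adipocyte RNA was also present outside the members, and at a far higher level for AS and MTZ-preventive. Summed over the 8 rule genes, the members held 14162 (13467 to 14883) CPM in the library labelled Healthy and 10627 CPM (10377 to 10882) in AS, and 16905 (16140 to 17697) in MTZ-treated and 7391 (7306 to 7475) in MTZ-preventive. All other passing cells held 19.5, 939, 73.7 and 523 CPM in the same order, and barcodes at or under 1000 UMIs held 93.8, 1395, 101 and 705 CPM. The other passing cells, and the classes among them, include cells with at least 4 rule genes that were left out for Ptprc or Pecam1. There were 9, 94, 24 and 534 of these in the same order, and 4, 87, 24 and 460 of them had Pecam1. Their part in the values outside the members was not tested. After thinning to 1000 UMIs, a rule gene was seen in 31.9% (28.2 to 35.7) of endothelial-marker cells of AS and in 27.6% (26.1 to 29.2) of those of MTZ-preventive, at median depths of 1395 and 2175 UMIs. B cell-marker cells, which should lack these genes, had one in 8.77% (7.24 to 10.5) in MTZ-preventive and in 0.393% (0.215 to 0.658) in the library labelled Healthy, at median depths of 1830 and 2036 UMIs. In AS a rule gene was seen in 52.5% (47.9 to 57.0) of neutrophil-marker cells, at 1240 UMIs. The shares differed between classes of the same library, in MTZ-preventive from 6.95% of T cell-marker cells to 33.0% of smooth muscle-marker cells.

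The proportions among adipocyte genes were also compared inside and outside the members. UMIs of Cidec per UMI of Adipoq were 1.41 in the AS members, 1.44 in its endothelial-marker cells, 1.74 in its fibroblast-marker cells and 3.55 in its macrophage-marker cells. UMIs of Cfd per UMI of Adipoq were 34.8 in the MTZ-preventive members, 35.3 in its endothelial-marker cells, 39.2 in its B cell-marker cells and 22.8 in its T cell-marker cells. In MTZ-treated, endothelial-marker cells had 1.56 for Cidec and 49.8 for Cfd against 0.617 and 26.4 in the members. The ratios were thus close to those of the members in some classes and libraries and not in others. The endothelial-marker class can hold cells with at least 4 rule genes that were left out for Pecam1. There were 87 such cells in AS and 460 in MTZ-preventive, beside 615 and 3105 endothelial-marker cells. How many of them lay in this class was not counted, so no conclusion is drawn from its ratios. How much of the adipocyte RNA in a member came from its own cell and how much from free RNA was not tested.

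**Figure D2:**
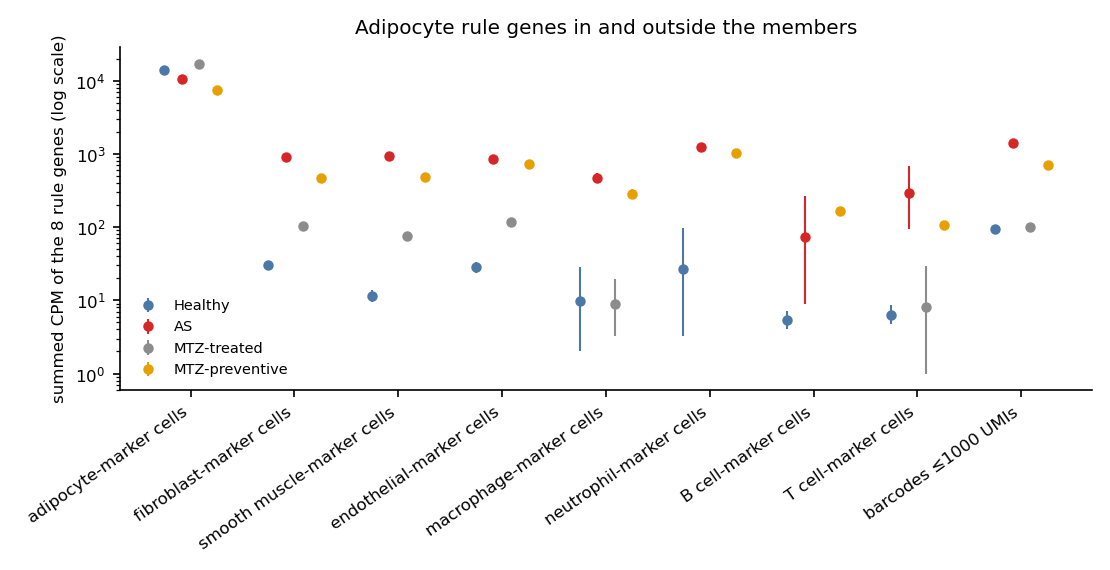
Summed CPM of the 8 rule genes (log scale) in adipocyte-marker cells, in cells with at least 3 markers of another type and in barcodes at or under 1000 UMIs, for each library, with exact 95% Poisson limits of counting error. Classes without a UMI of these genes have no point, and the AS and MTZ-preventive classes outside the members lie between 73.1 and 1395 CPM.

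Fat cell identity was checked on genes that the rule did not use. Among the 20 genes that led the members over the other cells of AS and MTZ-preventive were Cfd, Cyp2e1, Scd1, Thrsp, Dgat2, Gpd1, Trf and Slc27a1, several of them enzymes of lipid metabolism. Cfd was 8.32 times as high in members as in other cells of AS and 13.1 times in MTZ-preventive, and Cebpa, a transcription factor of the mature fat cell, was 4.94 and 8.09 times as high. Lipe, the hormone-sensitive lipase, was 4.37 and 7.04 times as high. Gpd1 and Dgat2, enzymes of glycerol and triglyceride synthesis, were 7.58 and 6.59 times as high in AS and 11.9 and 7.66 times in MTZ-preventive. Some known fat cell genes were less distinct. Pparg, the master regulator of fat cell differentiation, was 1.99 and 2.19 times as high, and Cd36, a fatty acid carrier shared with endothelium and macrophages, was 0.675 and 0.972 times the level of other cells. Aqp7, the glycerol channel of fat cells that capillary endothelium also makes, was at 0.299 times their level in AS. In MTZ-preventive it was at 12.6 CPM (9.32 to 16.6) in members and 13.2 in other cells, which is within the limits. Lep, which encodes leptin, had 18.2 CPM in the library labelled Healthy and 4.66 in AS, and 0 in MTZ-treated and 3.27 in MTZ-preventive, at or below the limit of a count of 0 in all but MTZ-preventive. These folds describe the cells that the rule chose and are not a test of identity. The other cells include those with at least 4 rule genes that were left out for Ptprc or Pecam1.

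Markers of other cell types were common among the members. At least 2 fibroblast genes were seen in 97.9% of members in the library labelled Healthy and 45.1% in AS, and 77.8% in MTZ-treated and 65.4% in MTZ-preventive. In the other cells the shares were 40.1%, 60.5%, 67.9% and 65.6%. At least 2 smooth muscle genes were seen in 6.25%, 42.5%, 33.3% and 55.4% of members, and at least 2 endothelial genes in 6.25%, 34.3%, 17.8% and 26.3%, in the same order. In the other cells they were 36.1%, 56.4%, 69.3% and 58.7% for smooth muscle genes and 16.4%, 48.0%, 45.7% and 31.2% for endothelial genes. Fibroblast genes were thus more frequent in members than in other cells beyond the limits in the library labelled Healthy (88.9 to 99.9%) and within them in MTZ-treated (62.9 to 88.8%), and smooth muscle genes were less frequent in members in all 4 libraries. Endothelial genes were too, but the rule removed cells with Pecam1, so this is not read as a difference. The 12292 other cells of the library labelled Healthy included 3566 B cell-marker and 2134 T cell-marker cells. The rule removed cells with Ptprc from the members, which favours a higher share of fibroblast genes in members there. The difference in fibroblast genes is therefore not read as one between fat cells and other wall cells. Neutrophil genes were frequent in AS, where 37.3% (31.8 to 42.9) of members had at least 2 of them against 1.01% (0.505 to 1.80) in MTZ-preventive and none of 48 and 45 members in the remaining libraries. Of the other cells, 41.4% in AS and 2.09% in MTZ-preventive had them. The rule removed cells with Ptprc, which favours a lower share in members. Red blood cell genes were seen likewise in 17.3% of AS members and in 0.275% of MTZ-preventive members, against 13.1% and 0.263% of the other cells. The name adipocyte-marker cells therefore states the rule. Without thinning, members with at least 2 fibroblast genes were the majority in all libraries but AS. After thinning, their share was 91.7% in the library labelled Healthy and 33.7% in AS, and 75.6% in MTZ-treated and 49.6% in MTZ-preventive. They were thus not the majority in MTZ-preventive after thinning. In AS 59 members, and in MTZ-preventive 166, carried fewer than 2 genes of each of 8 other types. Their median depth was 1281 and 5716 UMIs. They are called members without another type's genes below, although they could still hold a single gene of such a type. Of the members, 2, 9, 0 and 150 were called doublets in the library labelled Healthy, AS, MTZ-treated and MTZ-preventive. These are 4.17%, 2.94%, 0% and 13.8% of members, against 9.87%, 1.77%, 5.77% and 13.1% of all passing cells.

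The whole marker lists were also summed as levels, which did not always follow the shares of cells. The 10 fibroblast genes summed to 13588 CPM in members of the library labelled Healthy and 1648 in AS, and 12082 in MTZ-treated and 3011 in MTZ-preventive, with Col3a1 at 3449, Gsn at 663, Col1a1 at 2628 and Gsn at 1309 CPM as the most abundant gene of each. In the other cells of the same libraries the list was at 9432, 7924, 13696 and 11010 CPM. The sum was thus lower in members than in other cells in MTZ-treated and MTZ-preventive. Without thinning, the share of cells with at least 2 of the genes was higher in MTZ-treated members and nearly equal in MTZ-preventive members. After thinning, the share was 75.6% of MTZ-treated members against 59.8% of its other cells. In MTZ-preventive it was 49.6% of members against 58.9% of other cells, so that there the share was lower in members, as the sum was. The 8 neutrophil genes summed to 3335 CPM in AS members, led by S100a9 at 1533 CPM, to 31.1 CPM in MTZ-preventive members, and to 0 in the others. The macrophage list was at 118, 365, 184 and 234 CPM, with Cd14 highest in each library, and 8 of its 10 genes had no UMI in the members of the library labelled Healthy. The part of these markers in the differences between libraries was not tested.

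Receptor contigs are given as a description, since the rule left out cells with a UMI of Ptprc, which B cells and T cells express, and so favoured low shares in the members. A B cell receptor contig lay in 3 of 48 members of the library labelled Healthy (6.25%, 1.31 to 17.2), 2 of 306 of AS (0.654%, 0.0793 to 2.34), 0 of 45 of MTZ-treated (up to 6.67%, the limit a count of 0 allows) and 36 of 1089 of MTZ-preventive (3.31%, 2.33 to 4.55). Among the other cells, which include the B cells and T cells, the shares were 30.1%, 1.69%, 1.62% and 11.2%. T cell receptor contigs were seen in no member of any library, which allows up to 0.275% in MTZ-preventive, where 3.75% of the other cells had one.

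Levels of the rule genes in the members differed by library. Adipoq was at 1447 CPM in the library labelled Healthy and 1234 in AS, and 1614 in MTZ-treated and 1036 in MTZ-preventive. Car3 was at 7408, 3635, 9905 and 2266 CPM in the same order, so that it was lowest in the libraries with many members. Without the deepest member of each library, Car3 was at 6592, 3214, 7339 and 2235 CPM. Pck1 was at 1329 CPM in the library labelled Healthy and at 293, 461 and 336 CPM in the others. Retn was at 1247, 2126, 2407 and 1068 CPM, and Plin1 was at 382, 244, 314 and 124 CPM. Mrap had the reverse order of Car3, with 528, 770, 415 and 900 CPM. None of the 8 rule genes differed at least 2-fold between MTZ-preventive and AS, and the median log2 ratio over them was -0.53. Of the 2250 genes compared below, 3.24% were at least 2-fold higher and 2.76% lower, so that this count is near the background. The members were also chosen on these genes. Plin1 and Retn lay near the 2-fold limit, with log2 ratios of -1.05 and -1.07 with Gm42418 and AY036118 left out of the totals. In members without another type's genes they were -1.42 and -1.41. Plin1 was at -1.03 with at least 5 rule genes.

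**Figure D3:**
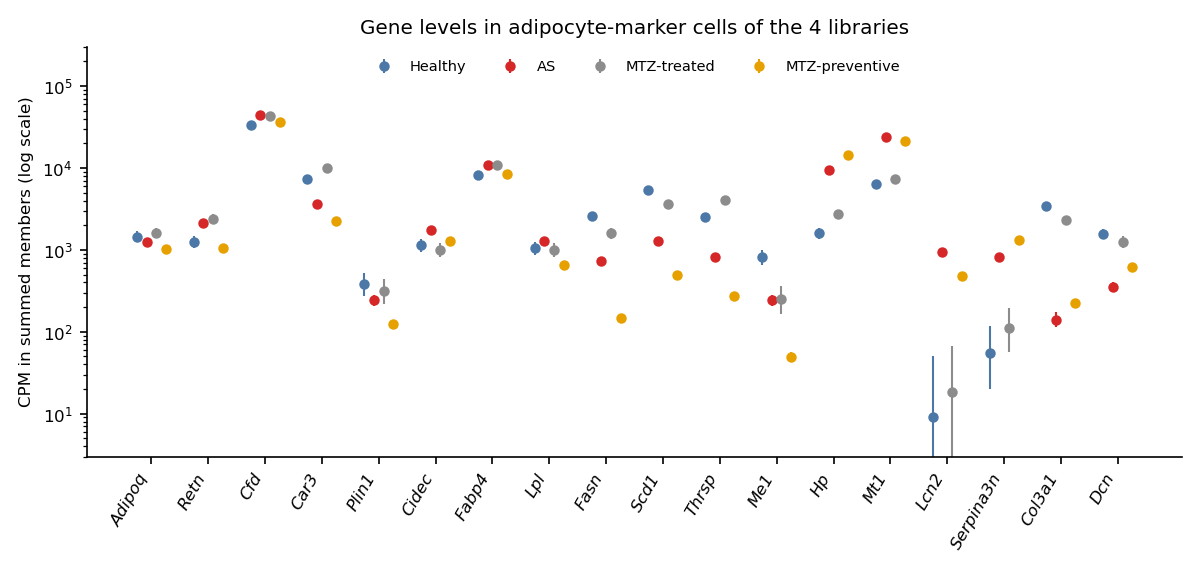
CPM (log scale) of 18 genes in the summed members of each library, with exact 95% Poisson limits of counting error. Fasn, Scd1, Thrsp and Me1 are lowest in MTZ-preventive, Hp, Mt1, Lcn2 and Serpina3n are higher in AS and MTZ-preventive, and Col3a1 and Dcn are higher in the others.

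Across the transcriptome of the members, MTZ-preventive was compared with AS over 2250 genes with a mean of at least 50 CPM. A ratio of at least 2 was found for 73 genes (3.24%), and a ratio of at most 0.5 for 62 genes (2.76%), with a median log2 ratio of 0.02. Higher genes were 54.1% of those past 2-fold. This split moved to 66.5% with totals that left out mitochondrial, ribosomal protein and hemoglobin genes, and to 41.0% with totals that left out Gm42418 and AY036118, a pair of genes that overlap ribosomal RNA. Gm42418 was at 64619 CPM in AS members and 37327 CPM in MTZ-preventive members. Among members with fewer than 2 genes of each of 8 other types, 185 genes were at least 2-fold higher and 169 lower, of which 44 and 40 were among the genes above. A red blood cell gene and a mural gene were still compared in them, with log2 ratios of -7.38 and -3.66. In the other cells, 41 of the same genes were at least 2-fold higher and 50 at least 2-fold lower. Of the members' genes, 17 of 73 and 26 of 62 were past 2-fold the same way in the other cells too.

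**Figure D4:**
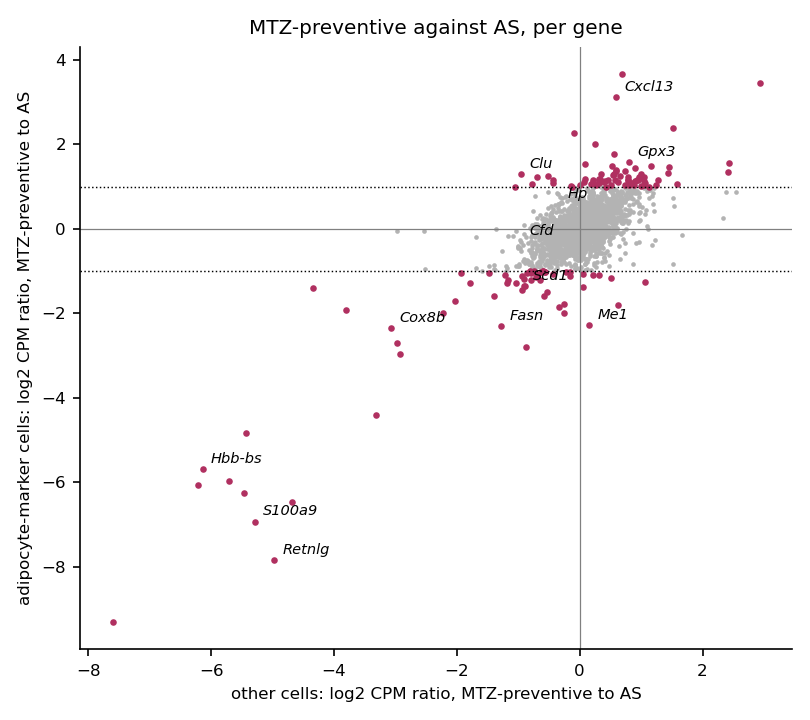
The log2 ratio of CPM in MTZ-preventive to AS for each of 2250 genes, in adipocyte-marker cells (vertical axis) against all other cells (horizontal axis), with genes past 2-fold in the members coloured and the 2-fold limits dotted. Retnlg, S100a9 and Hbb-bs lie far below 0 on both axes, while Fasn is lower on both, Me1 is lower in members and near 0 in other cells, and Clu is higher in members and lower in other cells.

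Fatty acid synthesis had more genes past 2-fold than any other list of fat cell function. Of 10 measured genes, 6 were at least 2-fold lower in MTZ-preventive members and none was at least 2-fold higher, with a median log2 ratio of -1.28, against 0.02 over all genes compared and -0.37 for the same genes in the other cells. The background of genes at least 2-fold lower was 2.76%. A ratio above 1 was seen for 3 of the 10 genes. Mlxipl was at 46.6 CPM in AS and 90.2 CPM in MTZ-preventive members, Srebf1 at 85.4 and 108 CPM and Acacb at 116 and 124 CPM. Without the deepest member of each library, chosen as an alternative after seeing the data, 3 of the 10 genes were at least 2-fold lower, and the median was -0.64. The list summed to 14516 CPM in members of the library labelled Healthy and 4054 in AS, and 11196 in MTZ-treated and 1607 in MTZ-preventive.

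Fasn encodes fatty acid synthase, which builds palmitate. It had 2594 CPM (2301 to 2913) in the library labelled Healthy and 728 CPM (663 to 797) in AS, and 1586 (1358 to 1842) in MTZ-treated and 147 (136 to 160) in MTZ-preventive. MTZ-preventive had a log2 ratio to AS of -2.30 (-2.48 to -2.13), and -1.82 without the deepest member of each library. Scd1 encodes the desaturase that makes oleate and was at 5433, 1277, 3643 and 500 CPM. Its log2 ratio of -1.35 became -0.62 without the deepest members. Among members with 1000 to 2000 UMIs, Scd1 was at 1073 CPM in AS and 858 in MTZ-preventive, and Fasn at 670 and 169 CPM. Thrsp, a lipogenic regulator that responds to thyroid hormone and sugar, was at 2539, 821, 4012 and 274 CPM, and at 423 CPM in AS and 267 in MTZ-preventive without the deepest members. Me1, the malic enzyme that supplies NADPH, was at 819, 242, 249 and 49.7 CPM, with a log2 ratio of -2.28 in members (-1.48 without the deepest) and 0.15 (-0.21 to 0.54) in other cells. Slc25a1, the carrier that exports citrate from mitochondria, was at 974, 352, 516 and 102 CPM, with 210 and 99.2 CPM in AS and MTZ-preventive without the deepest members. Acaca, the carboxylase that makes malonyl-CoA, was at 592, 152, 277 and 65.6 CPM, with 119 and 65.9 CPM in AS and MTZ-preventive without the deepest members, a log2 ratio of -0.85 and short of 2-fold. For all of them except Thrsp the order was the same, with the library labelled Healthy highest and MTZ-preventive lowest, and for Thrsp MTZ-treated was highest. The limits of Me1 overlapped between AS (206 to 283) and MTZ-treated (164 to 362). In the other cells of AS and MTZ-preventive, Fasn was at 84.3 and 34.7 CPM and Scd1 at 133 and 71.1 CPM. Thrsp was at 112 and 42.4 CPM there and Acaca at 30.4 and 19.4 CPM. These genes were thus lower outside the members as well, while Slc25a1 was higher there (41.5 and 64.3 CPM).

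The members were uneven in these genes. Fatty acid synthesis genes made up a median of 1.58% of a member's UMIs in the library labelled Healthy (range 0.0358 to 2.73%), 0.132% in AS (0 to 3.75%), 1.09% in MTZ-treated (0 to 1.83%) and 0.0929% in MTZ-preventive (0 to 1.60%). They exceeded 1% in 42 of 48 members (87.5%, 74.8 to 95.3), 22 of 306 (7.19%, 4.56 to 10.7), 27 of 45 (limits 44.3 to 74.3%) and 24 of 1089 (2.20%, 1.42 to 3.26) in the same order. Within 0.25 percentage points of this value lay 2, 9, 15 and 44 members. The value of 1% therefore cuts through a well-filled range in MTZ-treated, and in MTZ-preventive more members lay near it (44) than above it (24). In AS 9 lay near it and 22 above it, and few members lie near it in the library labelled Healthy. The deepest AS member had 29575 UMIs, 4.59% of the UMIs of AS members, all 8 rule genes, and 162 of the 469 Fasn UMIs and 382 of the 823 Scd1 UMIs. The 10 members with the most UMIs of the list held 56.7% of them in AS and 19.2% in MTZ-preventive. After thinning, which gives each cell the same weight, Thrsp was seen in 97.9% of members in the library labelled Healthy and 22.9% in AS, and 84.4% in MTZ-treated and 19.2% in MTZ-preventive, against 1.64%, 9.92%, 3.21% and 4.04% of the other cells, whose median depths were 2005, 1283, 1568 and 1731 UMIs. Thrsp was thus at close shares in AS and MTZ-preventive, as were Acly (6.21% and 6.06%) and Acacb (9.80% and 10.6%). Mlxipl was seen in 3.59% and 7.81%, and Srebf1 in 6.21% and 9.55%, which is the other direction. Scd1 was seen in 41.8% of AS and 20.2% of MTZ-preventive members and Me1 in 11.4% and 4.96%. Of the other cells, 2.48% and 1.97% had Me1.

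Other genes went with this range. In the 22 AS members above 1%, Hp was at 2177 CPM and Lcn2 at 16.6 CPM, against 10217 and 1027 CPM in the other 284. The median over cells of Hp was 1547 CPM in the 22 and 7192 CPM in the 284. Lcn2 was seen in 4.55% of the 22 and 61.6% of the 284, with medians of 0 and 577 CPM. At least 2 neutrophil genes were seen in 13.6% of the 22 and 39.1% of the 284, and their part in these values was not tested. Dgat2, the last enzyme of triglyceride synthesis, was at 1080 and 66.8 CPM in these cells, and Car3 at 10801 and 2896 CPM. The medians over cells were 843 and 0 CPM for Dgat2 and 10045 and 1688 CPM for Car3. The deepest AS member was among the 22. It held 36 of the 104 Dgat2 UMIs and 366 of the 2342 Car3 UMIs of all AS members. In MTZ-treated, Hp was at 561 CPM in the 27 members above 1% and at 6373 CPM in the other 18. In MTZ-preventive it was at 13366 CPM in the 24 members above 1% and at 14263 CPM in the others, with medians over cells of 13047 and 8295 CPM. In the library labelled Healthy it was at 1781 CPM in the 42 members above 1% and at 1119 CPM in the other 6. Hp was thus lower in the members above 1% in AS and MTZ-treated, and by the median over cells it was not in MTZ-preventive. The fibroblast gene Col3a1 went with this range in the library labelled Healthy and MTZ-treated. Its median over cells was 5149 CPM in the 42 members above 1% of the library labelled Healthy and 38.5 CPM in the other 6, and 4805 CPM in the 27 of MTZ-treated and 0 in the other 18. In AS and MTZ-preventive it was 0 on both sides of 1%. The deepest member of every library had all 8 rule genes, no UMI of Dcn and Acta2, and at most 1 UMI of Col3a1. Whether the fibroblast RNA of the other members was their own was not tested.

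**Figure D5:**
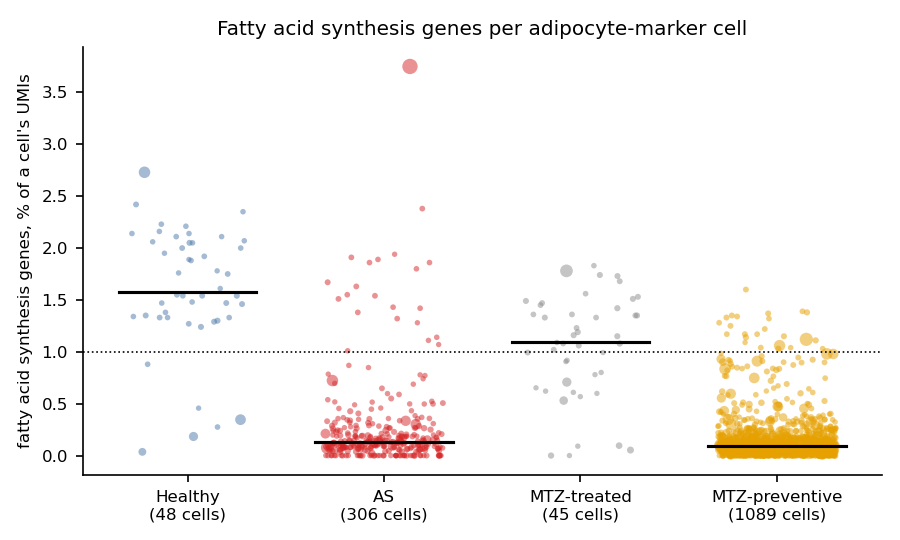
Percent of a cell's UMIs that came from 14 fatty acid synthesis genes, 1 point for each adipocyte-marker cell, larger for deeper cells, with the median of each library as a black line and 1% dotted. Medians are 1.58%, 0.132%, 1.09% and 0.0929% from left to right, and the deepest AS member lies highest at 3.75%.

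Genes that store and release triglyceride were compared as further lists. None of 8 measured triglyceride synthesis genes, 5 lipolysis genes and 7 fatty acid uptake genes was past 2-fold between MTZ-preventive and AS members, with median log2 ratios of -0.22, 0.19 and -0.62. Of all genes compared, 3.24% were past this limit upward and 2.76% downward, so that a count of 0 in lists of this size is near the background. Among members with at least 6 rule genes, and among those without another type's genes, 3 of the 7 uptake genes were at least 2-fold lower, where 4.97% and 8.35% of all genes were. Lpl, the lipase that frees fatty acids from lipoproteins, was at 1268 (1182 to 1358) CPM in AS and 663 (638 to 689) in MTZ-preventive, a log2 ratio of -0.93, and at 1047 and 1005 CPM in the library labelled Healthy and MTZ-treated. It was lower in the other cells of MTZ-preventive as well, at 432 CPM in AS and 135 CPM in MTZ-preventive. The median log2 ratio of the 7 uptake genes was -0.68 in the other cells. Pnpla2, which encodes the first lipase of the droplet, was at 1420, 1903, 848 and 2178 CPM. Of 11 measured genes of the droplet and its surface, Hilpda, an inhibitor of that lipase, was at 118 CPM in AS and 268 CPM in MTZ-preventive members (log2 ratio 1.18, 0.84 to 1.54). It was short of 2-fold after thinning (0.65), with the looser limits (0.70), in the mean over cells (0.79) and in members with 1000 to 2000 UMIs (0.09). Cidea, a droplet protein prominent in brown fat, was at 247 and 62.5 CPM (log2 ratio -1.98), of which 97 of 159 AS UMIs came from the deepest member. Its log2 ratio without that member and its counterpart was -0.68.

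Secreted products gave a mixed picture. None of 12 measured adipokine genes was past 2-fold, with a median log2 ratio of -0.24. This count is near the shares over all genes compared, 3.24% higher and 2.76% lower. Among members without another type's genes, 4 of the 12 were at least 2-fold lower, where 8.35% of all genes were. Cfd was at 33547 CPM in the library labelled Healthy and 44549 in AS, and 42617 in MTZ-treated and 36080 in MTZ-preventive. Angptl4, an inhibitor of Lpl, was at 268 CPM in AS and 511 CPM in MTZ-preventive members (log2 ratio 0.93, 0.70 to 1.16), and Rarres2, which encodes chemerin, was at 270 and 141 CPM (log2 ratio -0.93, -1.18 to -0.68). Both lay just short of 2-fold, in opposite directions.

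Regulators and receptors were mostly within 2-fold as well. None of 7 measured transcription factors was past it. Of 8 genes of insulin and adrenergic signalling, Slc2a1, a glucose carrier, was higher (29.5 and 70.8 CPM in AS and MTZ-preventive) and Prkar2b, a regulatory subunit of protein kinase A, was lower (168 and 79.4 CPM), against 3.24% higher and 2.76% lower of all genes. These calls depended on the setting. None of the 8 genes was past 2-fold with the looser limits, where the log2 ratios of Slc2a1 and Prkar2b were 0.84 and -0.70. Of 6 genes none was higher and 2 were lower among members with 1000 to 2000 UMIs, and after thinning the log2 ratio of Slc2a1 was 0.44. Slc2a4, the insulin-responsive glucose carrier of fat, was at 24.8 and 18.3 CPM and below the level that was compared.

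Of 16 genes tied to brown fat, 3 had a mean of at least 50 CPM over AS and MTZ-preventive members. The list summed to 1065, 962, 729 and 1170 CPM in the library labelled Healthy, AS, MTZ-treated and MTZ-preventive. Most of it in AS and MTZ-preventive was Pdk4, a kinase that restrains the use of sugar by mitochondria and is not particular to brown fat, at 655, 563, 314 and 1008 CPM. MTZ-preventive had a log2 ratio to AS of 0.84 for it. Ucp1, which uncouples respiration to make heat, had 0 CPM in the library labelled Healthy and 21.7 CPM (11.9 to 36.5) in AS, and 0 in MTZ-treated and 7.03 (4.67 to 10.2) in MTZ-preventive. Cox8b, a subunit of cytochrome oxidase in brown fat and muscle, was at 182, 194, 277 and 37.9 CPM. Cox8b was lower in MTZ-preventive than in each of the others, with a log2 ratio to AS of -2.35 (-2.71 to -2.00). It was lower in the other cells as well, at 22.9 CPM in AS and 2.74 CPM in MTZ-preventive (log2 ratio -3.07). Cox8b was the only brown fat gene of 3 measured that was past 2-fold. Of all genes compared, 3.24% were at least 2-fold higher and 2.76% lower. With at least 5 or 6 rule genes, and in members without another type's genes, Pdk4 was at least 2-fold higher besides. In these settings 4.24%, 5.20% and 9.14% of all genes were higher. None of 21 measured genes of the respiratory chain was past 2-fold, with a median log2 ratio of -0.44. This count is near the shares of 3.24% higher and 2.76% lower over all genes.

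Carbonic anhydrases, the enzyme family that MTZ inhibits, were scarce in the members apart from Car3. The other 15 carbonic anhydrase genes summed to 164, 216, 166 and 122 CPM in the library labelled Healthy, AS, MTZ-treated and MTZ-preventive. Car5b, a mitochondrial form, was at 118, 118, 129 and 57.0 CPM and was the only one with a mean above 50 CPM. MTZ-preventive had a log2 ratio to AS of -1.05, which became -0.84 without the deepest members. Car2 was at 9.10, 3.10, 0 and 6.53 CPM, under the limit of a count of 0 in all but MTZ-preventive.

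Several acute phase and metal-binding genes were higher in AS and MTZ-preventive members than in those of the other libraries. Hp, which encodes haptoglobin, had 1593 CPM (1365 to 1847) in the library labelled Healthy and 9467 CPM (9230 to 9707) in AS, and 2739 (2436 to 3069) in MTZ-treated and 14246 (14129 to 14364) in MTZ-preventive. Mt1, a metallothionein, was at 6398, 23964, 7341 and 21607 CPM. Without the deepest member of each library, Hp was at 1217, 9808, 3153 and 14239 CPM and Mt1 at 6518, 24580, 6127 and 21564 CPM. Serpina3n, a protease inhibitor of the acute phase, was at 54.6, 815, 111 and 1318 CPM, and Lcn2, an iron carrier-binding protein made by inflamed fat and by neutrophils, at 9.10, 933, 18.4 and 480 CPM. In the other cells Hp was at 4.90, 1722, 51.5 and 1370 CPM and Mt1 at 574, 9659, 1645 and 5652 CPM, Serpina3n at 12.6, 573, 91.7 and 578 CPM and Lcn2 at 44.5, 1040, 170 and 182 CPM. All 4 genes were thus also higher outside the members in AS and MTZ-preventive, and Lcn2 was higher in the other cells than in members in all libraries but MTZ-preventive. Some other genes of the list did not follow them. Saa3 was at 0, 77.6, 249 and 75.6 CPM, Orm1 at 182, 210, 267 and 53.0 CPM and Cp at 109, 54.3, 46.1 and 26.4 CPM. Between MTZ-preventive and AS, 3 of 12 measured genes of this list were at least 2-fold lower and none higher, against 2.76% lower and 3.24% higher of all genes. They were Orm1 (log2 ratio -1.98), an acute phase plasma protein, and Cxcl2 (-2.71) and Spp1 (-6.26), a neutrophil chemokine and osteopontin. All 3 were lower in the other cells of MTZ-preventive as well, with log2 ratios of -2.23, -2.98 and -5.47.

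The genes at least 2-fold higher in MTZ-preventive members were led by Cxcl13, a chemokine that attracts B cells, at 27.9 CPM in AS and 243 CPM in MTZ-preventive (log2 ratio 3.12), which was at 658 and 992 CPM in the other cells. Gpx3, a secreted glutathione peroxidase, was at 748 (683 to 818) and 2242 (2196 to 2289) CPM, a log2 ratio of 1.58 in members and 0.80 in the other cells. Clu, which encodes the chaperone clusterin, was at 258 and 636 CPM in members and at 855 and 439 CPM in the other cells, so that its direction was opposite in them. Its log2 ratio of 1.30 was 0.34 after thinning and 0.17 in members with 1000 to 2000 UMIs. Others among the 12 highest with a mean of at least 100 CPM were Htra3, Tuba1a, Bgn, Herpud1, Cd74, Nrip1, Manf and Rps12, with log2 ratios from 1.23 to 1.48. Of these, Tuba1a was not higher in members without genes of another type (log2 ratio -0.21). Herpud1 and Manf act in the stress response of the endoplasmic reticulum. Bgn and Cd74 were more abundant in the other cells than in members of both libraries, as were Htra3 and Tuba1a.

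Of the 73 higher genes, 10 had a ratio below 1 in the other cells, and of the 62 lower genes, 8 had a ratio above 1 there. For Eif4ebp2, Lox, Me1, Plac8 and Poldip2 the counting limits in the other cells included a ratio of 1, so that no direction is given for them there. Besides Clu, the others included Fth1 and Lrg1, singled out here after their values were seen. Fth1, the heavy chain of ferritin, which stores iron, was at 11676 CPM in AS members and 23678 CPM in MTZ-preventive members, and at 12534 and 11351 CPM in the other cells. Among members with 1000 to 2000 UMIs Fth1 was at 10614 and 14389 CPM, short of 2-fold, and among deeper members at 12550 and 25518 CPM. The log2 ratio of Fth1 was -0.14 over all other cells, 0.35 in endothelial-marker, 0.00 in fibroblast-marker and -0.16 in smooth muscle-marker cells. The lower level outside the members was thus seen in the smooth muscle class and not in the endothelial and fibroblast classes. Lrg1, a secreted glycoprotein of the acute phase, was at 1395 and 2925 CPM in members and at 782 and 460 CPM in the other cells. The difference between members and other cells was not tested.

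The genes at least 2-fold lower in MTZ-preventive members were led by neutrophil genes. Retnlg was at 635 and 2.76 CPM in AS and MTZ-preventive, S100a9 at 1533 and 12.6 CPM, S100a8 at 947 and 15.1 CPM and Wfdc17, which encodes a protein of activated myeloid cells, at 245 and 2.76 CPM. Hbb-bs, a hemoglobin gene, was at 950 and 18.3 CPM. All of them were also lower in the other cells of MTZ-preventive, and 37.3% of AS members carried neutrophil genes as given above. Pmvk, which encodes an enzyme of the mevalonate pathway, was at 355 and 51.5 CPM in members and at 67.9 and 37.0 CPM in the other cells. The remaining genes of the 12 lowest were Ifitm1, Cxcl2, Cox8b, Fasn, Me1 and Orm1.

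Of the lists that follow tissue handling, 1 of 15 immediate early genes, Nr4a1, was at least 2-fold higher in MTZ-preventive members (301 and 629 CPM), and none of 10 heat shock genes was past 2-fold. Nr4a1 was at 315 and 944 CPM in the other cells. Of 5 basement membrane genes, Lamc1 alone was past 2-fold, at 37.2 and 76.1 CPM. Fibroblast genes had 2 of 8 at least 2-fold higher, with a median log2 ratio of 0.81, endothelial genes had 3 of 3 lower, and neutrophil genes 4 of 4 and red blood cell genes 3 of 3 lower. With called doublets removed, no fibroblast gene of 7 was past 2-fold, with a median of 0.35, and among members with 1000 to 2000 UMIs no endothelial gene of 6 was. No smooth muscle gene of 5, no macrophage gene of 1 and no mural gene of 1 was past 2-fold. Of all genes compared, 3.24% were at least 2-fold higher and 2.76% lower. Nr4a1 had log2 ratios of 0.98 with at least 5 rule genes, 0.91 with the looser limits and 0.99 without Gm42418 and AY036118, and Lamc1 lay between 0.70 and 1.12 over the alternatives, so that both were near the 2-fold limit.

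Among members of the same library, several levels differed with the number of rule genes. Lipe was at 145 CPM in members with 4 rule genes and 588 CPM in members with 8 in AS, and at 152 and 555 CPM in MTZ-preventive. Fasn in AS was at 401, 385, 453 and 644 CPM in members with 4, 5, 6 and 7 rule genes, and at 2999 CPM in those with 8. Without the deepest member, the AS cells with 8 rule genes had 1093 CPM of Fasn and 546 CPM of Lipe. In MTZ-preventive, Fasn was at 64.5 CPM with 4 and 446 CPM with 8 rule genes. Dcn, a fibroblast proteoglycan, was at 381 and 29.4 CPM in AS (52.0 with 8 rule genes without the deepest member) and at 1407 and 106 CPM in MTZ-preventive with 4 and with 8 rule genes. Gm42418 was at 91662 and 20437 CPM in AS, 31270 CPM without the deepest member, and at 55032 and 21774 CPM in MTZ-preventive. The members with 8 rule genes were 9 cells in AS and 72 in MTZ-preventive, with median depths of 2206 and 7678 UMIs.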

How the data were processed

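The authors obtained UMI counts for genes and barcodes from Cell Ranger (5.0.0 per the file headers; the submitters' processing notes also name STAR and mm10) and deposited raw counts. The receptor files list contigs, of which the productive ones were used, with no filter on their counts of UMIs as deposited. Groups were taken from the sample labels. From the counts, members were found by the rule, UMIs were summed over the members of a library and scaled to a total of 1000000 (CPM), with counts of symbols on more than 1 line added together. Limits at 95% are Clopper-Pearson for shares, exact Poisson for CPM, exact conditional binomial for ratios and log-normal for ratios of shares. The limit for a count of 0 is 3 counts. Genes compared had a mean of at least 50 CPM over AS and MTZ-preventive, without immunoglobulin, T cell receptor, mitochondrial and unnamed genes, and were called at a ratio of at least 2 or at most 0.5. Classes of other cells had at least 3 markers of a list. Doublets were called in each library by simulation (0.8% per 1000 cells) and kept, except in an alternative.

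Named genes were those of 27 lists, of which 2 of 310 genes were not in the files, the 12 highest and 12 lowest ratios with a mean of at least 100 CPM, the 20 leading genes of the members, and Apoe. A gene among the 12 highest is not reported here. Angptl4 and Rarres2 were singled out of their list after their values were seen. The members and the lists were chosen with earlier results of these data known. Alternatives were the number of rule genes, depth, cell limits, doublets, scaling and filters. Steps were tested on simulated data. Python 3.11.15 was used with scikit-learn 1.9.0, pandas 2.3.3, matplotlib 3.10.9, scipy 1.17.1 and numpy 2.4.6, and edgeR 4.0.16 in R 4.3.3 for factors of the trimmed mean of M values (TMM) alone.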

Additional observations from a re-analysis of the deposited data

How the results depend on the processing

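AS kept a higher share of members than each other library under all alternatives. The AS to Healthy ratio was 23.7 with more than 500 UMIs and under 20% mitochondrial UMIs and 19.9 without B cell- and T cell-marker cells in the denominator, and the AS to MTZ-treated ratio was 16.1 with at least 6 rule genes. The AS to MTZ-preventive ratio was 1.84 with at least 6 rule genes, 2.73 after thinning, 1.33 with the looser limits, 1.83 with no limit on Ptprc and Pecam1, and 1.84 with the smaller denominator. The cause of these shifts was not tested. Genes at least 2-fold higher were 114 and those at least 2-fold lower 109 with at least 6 rule genes, and 185 and 169 in members without another type's genes, where fewer cells were compared. They were 209 and 149 at a mean of at least 20 CPM and 39 and 34 at 100 CPM, where the number of genes compared differed. The higher genes were 132 in members with 1000 to 2000 UMIs and 117 with hemoglobin, ribosomal protein and mitochondrial genes left out of the totals. Of the 73 higher genes, 44 remained in members without another type's genes and 35 after thinning. Tuba1a reversed, to a log2 ratio of -0.21, in members without another type's genes. Of 734 values of 57 genes under alternatives, 527 stayed within the limits of counting error and 206 moved. Fatty acid synthesis had 3 of 10 genes at least 2-fold lower after thinning (1 higher), in the mean over cells and without the deepest members (none higher), and 7 of 11 lower and 1 higher (Mlxipl in both cases) in members without another type's genes. In the same order 3.61%, 2.34%, 2.34% and 8.35% of all genes were lower. It also had 1 gene higher with called doublets removed (6 of 10 lower) and with at least 6 rule genes (7 of 10 lower). With mitochondrial, ribosomal protein and hemoglobin genes left out of the totals, 1 was higher and 6 of 11 were lower. In these settings 3.34%, 5.20% and 4.30% of all genes were higher and 3.25%, 4.97% and 2.17% lower. Adipokines had 1 of 12 higher and 2 lower with at least 5 or 6 rule genes. Of all genes, 4.24% and 5.20% were higher and 3.74% and 4.97% lower in these settings. With Gm42418 and AY036118 left out of the totals, 2 of 12 adipokines and 2 of 7 uptake genes were lower, where 3.75% of all genes were. Fibroblast genes had none of 8 higher and 1 lower with at least 5 rule genes (median 0.39), where 4.24% of all genes were higher and 3.74% lower. Respiratory chain genes had 3 of 21 lower in members without another type's genes, where 8.35% of all genes were lower. The log2 ratio of Lamc1 was 0.88 with doublets removed and that of Nr4a1 0.98 with at least 5 rule genes, both short of 2-fold. Without thinning, a rule gene was seen in 15.0% of B cell-marker cells of MTZ-preventive and 37.6% of macrophage-marker cells of AS. Markers of another type at 3 genes were in 64.7% of AS and 70.8% of MTZ-preventive members. No paired analysis was possible because each group has 1 library. In the library labelled Healthy and MTZ-treated, 48 and 45 members limit levels under about 28 CPM.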
